A study of Mus musculus with 12 samples.

Results

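Transcripts of 10 genes of the interleukin-1 (IL-1) family were followed in squamous cell carcinoma (SCC) cells and macrophages of mouse skin tumors, read by gene symbol and Ensembl ID out of 53801 gene rows. They were the ligands Il33, Il1a, Il1b, Il18 and Il1f9, the antagonist Il1rn, the IL-33 receptor ST2 (Il1rl1), the IL-1 receptor Il1r1, the shared co-receptor Il1rap and the decoy receptor Il1r2. RNA-seq had been done on 12 libraries from carcinomas of FVB mice, 3 in each of 4 sorted groups. Reporter-positive tumor cells and reporter-negative tumor cells were basal carcinoma cells (Rosa-YFP+ CD49f+ CD29+) that did or did not carry the mScarlet signal of a TGF-beta reporter. FceRIa-positive macrophages and FceRIa-negative macrophages were CD45+ F4/80+ cells that did or did not carry the alpha chain of the high-affinity IgE receptor on their surface. Both tumor groups carried the Rosa-YFP label. The sources used here give neither the promoter that marked the tumor cells nor the age and number of the mice or any pooling of tumors.

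IL-33 and IL-1 alpha are stored in epithelial cells and act as alarm signals once a cell is damaged, whereas IL-1 beta and IL-18 are made as inactive precursors, mainly by myeloid cells, and are cut by caspases before they act. IL-33 binds ST2 and both forms of IL-1 bind IL-1R1, and IL-1RAP then joins to start MyD88 and NF-kappaB signalling, while IL-18 uses a receptor pair of its own (Il18r1 and Il18rap). IL-1R2 binds IL-1 without signalling, and IL-1RN occupies IL-1R1 without signalling. In skin, keratinocytes are a known source of IL-33, IL-1 alpha and IL-36 gamma (Il1f9), and ST2 is known from mast cells, innate lymphoid cells, regulatory T cells and some macrophages.

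The genes lie in a few blocks of the mouse genome (GRCm38). Il1r2 (chr1:40074079-40125231), Il1r1 (chr1:40225080-40317257) and Il1rl1 (chr1:40429570-40465415) stand in line on the plus strand of chromosome 1. Il1f9 (chr2:24186476-24193568, plus strand) and Il1rn (chr2:24336853-24351494, plus strand) stand apart on chromosome 2 from Il1a (chr2:129299610-129309972, minus strand) and Il1b (chr2:129364570-129371139, minus strand). Il33 lies at chr19:29925114-29960718, Il18 at chr9:50554827-50581840 and Il1rap at chr16:26581704-26730117, all on the plus strand. All 10 are protein-coding genes, and a gene's count sums all its isoforms, so soluble and membrane ST2 were not separated here.

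The promoters of Il33, of its receptor gene Il1rl1 and of Il1f9 and Il1a, the other ligand genes called between the tumor cell groups with the replicate block, are shown as the 250 bases before a start site in the reference assembly (RefSeq annotation, GRCm38.p6, written along the strand of the gene). Each was searched on both strands for short motifs of transcription factors, and capitals mark every match. The letters searched were TGANTCA for the AP-1 family. For SMAD factors of TGF-beta signalling they were CAGACA. For the antioxidant response element they were TGACNNNGC. For the GATA family the search used AGATAA. For the myeloid factor PU.1 it used GAGGAA. The NF-kappaB motif was searched as well, and no match overlapped another. Il33 and Il1rl1 have more than 1 annotated start, so both Il33 windows and the upstream Il1rl1 window are given.
Il33, chr19:29924863-29925112, plus strand: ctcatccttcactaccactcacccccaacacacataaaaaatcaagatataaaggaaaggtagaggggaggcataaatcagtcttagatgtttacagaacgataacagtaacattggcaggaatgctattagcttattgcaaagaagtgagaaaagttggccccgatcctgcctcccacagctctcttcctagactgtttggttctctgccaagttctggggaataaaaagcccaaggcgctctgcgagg
Il33, chr19:29945540-29945789, plus strand: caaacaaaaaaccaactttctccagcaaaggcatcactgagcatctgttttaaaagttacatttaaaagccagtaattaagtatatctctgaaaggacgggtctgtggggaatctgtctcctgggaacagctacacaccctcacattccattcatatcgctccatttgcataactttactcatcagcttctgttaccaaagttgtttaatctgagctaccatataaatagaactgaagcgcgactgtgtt
Il1rl1, chr1:40429320-40429569, plus strand: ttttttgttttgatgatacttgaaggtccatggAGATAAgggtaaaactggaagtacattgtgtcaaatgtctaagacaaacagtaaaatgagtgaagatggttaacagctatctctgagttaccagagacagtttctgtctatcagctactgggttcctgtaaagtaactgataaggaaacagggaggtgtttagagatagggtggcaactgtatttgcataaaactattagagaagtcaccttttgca
Il1f9, chr2:24186226-24186475, plus strand: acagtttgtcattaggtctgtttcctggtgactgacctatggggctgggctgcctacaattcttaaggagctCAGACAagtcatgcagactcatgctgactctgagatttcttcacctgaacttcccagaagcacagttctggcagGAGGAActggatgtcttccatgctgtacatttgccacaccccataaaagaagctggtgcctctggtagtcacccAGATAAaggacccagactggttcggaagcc
Il1a, chr2:129309973-129310222, minus strand: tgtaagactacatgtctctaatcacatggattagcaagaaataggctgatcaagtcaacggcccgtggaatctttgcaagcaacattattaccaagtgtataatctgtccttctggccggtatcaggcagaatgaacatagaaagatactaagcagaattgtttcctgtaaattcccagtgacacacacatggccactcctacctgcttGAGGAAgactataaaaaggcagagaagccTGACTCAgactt
Neither Il33 window held any of the searched letters. The Il1rl1 window held GATA letters starting 217 bases before the start. The Il1f9 window held SMAD letters at 178, PU.1 letters at 104 and GATA letters at 30 bases before the start. The Il1a window held PU.1 letters at 41 and AP-1 letters at 12 bases before the start. Of 32851 promoter windows of this length, 6.749% held AP-1, 1.208% NF-kappaB, 17.13% SMAD, 10.16% antioxidant response, 9.988% GATA and 23.25% PU.1 letters. These matches describe the reference sequence and do not show binding.

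Total deposited counts ranged over 27951632 to 35088897 for tumor cells and 33704786 to 40041144 for macrophages, so that 3 counts, taken as the floor of detection for counting error only, equal 0.0698 to 0.107 counts per 1000000 counts of a library (CPM). Krt14 stood at 32256 to 41160 CPM in tumor cells, and Csf1r at 2227 to 3144 CPM in macrophages. The macrophage libraries also held 97.2 to 1706 CPM of Krt14. Fcer1a, which encodes the surface protein used to sort the macrophages, had 2, 7 and 1 counts in FceRIa-positive macrophages and 0, 4 and 3 counts in FceRIa-negative macrophages, at the floor in most libraries, so its transcript does not check those labels. Reporter-positive tumor replicate 2 and reporter-negative tumor replicate 2 stood apart from replicates 1 and 3, which were close to each other in both groups (chi-square per degree of freedom 1.62 and 2.97, against 43.1 to 90.6 for pairs with replicate 2). Differences are log2 values from edgeR's quasi-likelihood test, with adjusted p values over all genes tested and a threshold of 0.05. Same-numbered libraries deviated together in both cell types, so the value with the replicate number as a block is given beside the unpaired one where it changes a call. In tumor cells, reporter-positive replicates 1 and 3 correlated with reporter-negative replicates 3 and 1 (0.483 and 0.488) as much as with their own numbers (0.449 and 0.488). Only number 2 could thus be told as a pair in tumor cells, which limits the blocked tumor calls. Nothing in the sources says that the replicates came from separate mice, so p values measure the spread between these libraries. In bulk libraries, fewer cells of a type and less RNA per cell cannot be told apart.

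**Figure D1:**
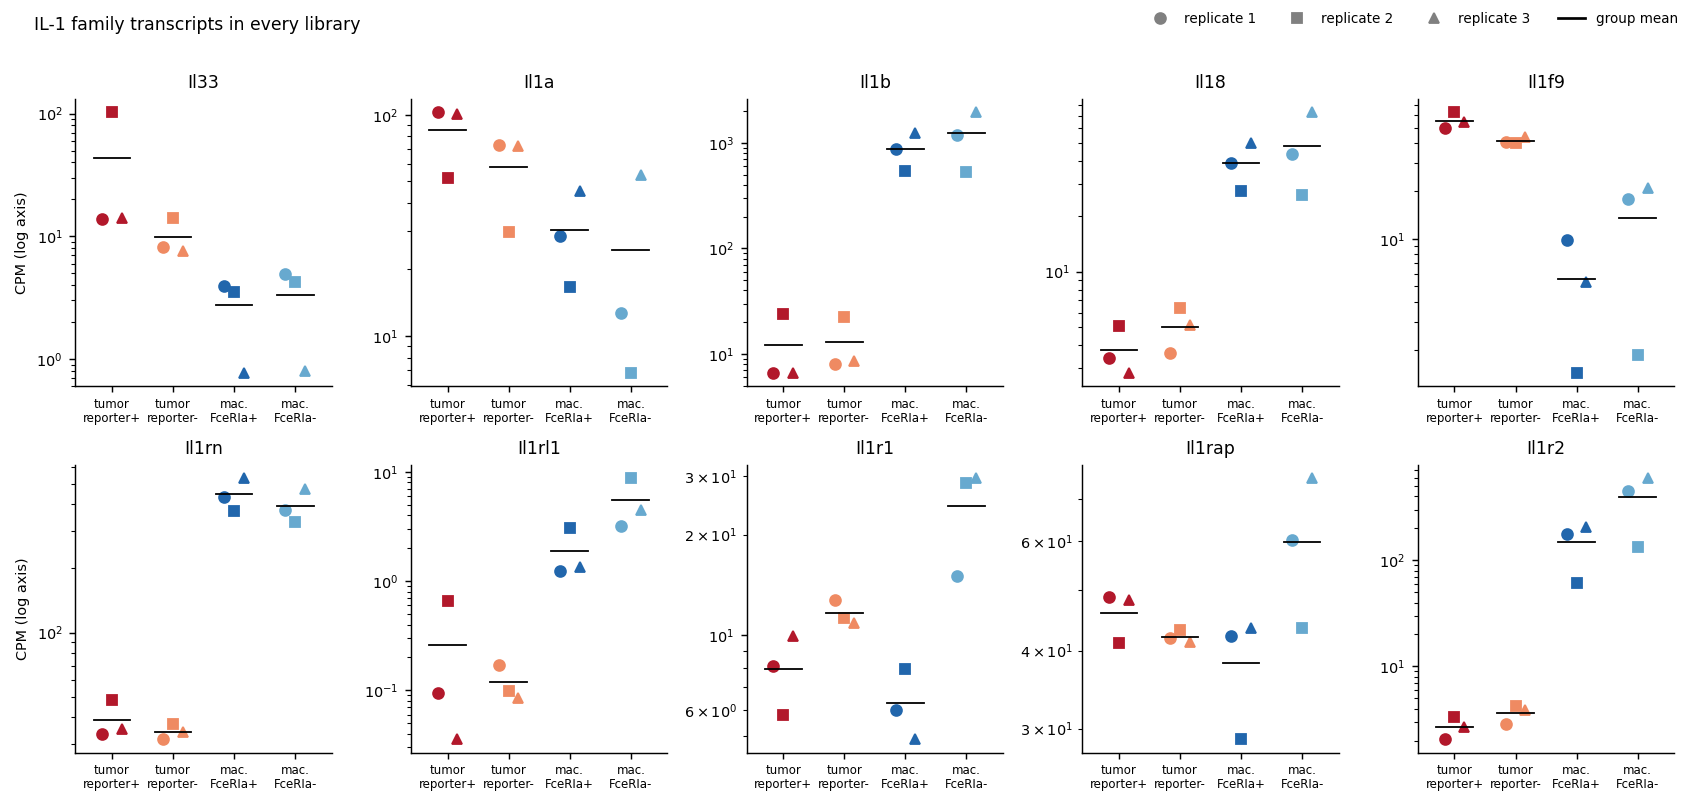
CPM of each of the 10 genes in every library (log axes that differ between panels); points are libraries shaped by replicate number, and lines are means of 3 libraries. Tumor reporter-positive replicate 2 lies above every other library for Il33, and the FceRIa-positive macrophages lie below the FceRIa-negative macrophages for Il1rl1 and Il1r1.

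In the comparison of tumor cells by TGF-beta reporter signal, Il33, Il1a and Il1f9 transcripts were higher in reporter-positive cells once replicate numbers were paired, and no gene of the 10 passed the unpaired test. Of 9 tested genes, 0 were called without the block by edgeR, where 0.809% of all tested genes were called in either direction. At an unadjusted p under 0.05 there were 2 higher and 1 lower, and DESeq2 called 1 higher and 0 lower. With the block 3 were higher, where 10.7% of all tested genes were called higher, and 0 were lower, where 7.34% were called lower and 18.0% in either direction. Without replicate 2, the blocked fit called 4 higher, where it called 21.5% of all tested genes higher, and 4 lower, where it called 20.6% lower, on the pairs of replicates 1 and 3 that are close to each other.

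Il33 encodes the alarm cytokine IL-33, the ligand of ST2. It had 13.9, 103 and 14.0 CPM in reporter-positive cells and 8.19, 14.0 and 7.63 CPM in reporter-negative cells. Replicate 2 was the highest library in each group, and reporter-positive replicates 1 and 3 lay just below reporter-negative replicate 2, so the groups overlapped. Within replicate numbers 1, 2 and 3 the reporter-positive cells had 1.69, 7.34 and 1.82 times the level of the reporter-negative cells. The unpaired log2 difference was 2.14 ± 0.86 (SE; adjusted p = 0.240), and the blocked one was 1.61 ± 0.42 (adjusted p = 0.0458). Without reporter-positive replicate 2 the unpaired difference was 0.48, and without pair 2 the blocked one was 0.81, so 1 library sets the size of the difference. The latter was called, but in a fit on replicates 1 and 3, which are close to each other. That fit called 21.5% of all tested genes higher. With replicates 1 and 3 summed, the unpaired edgeR difference was 2.42 ± 0.98 (SE, adjusted p = 0.727).

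Reporter-positive replicate 2 also differed in other cells' markers. Its mast cell genes Tpsb2, Mcpt4 and Cpa3 had 50, 62 and 31 counts, against at most 8 counts of any of these in the other tumor libraries. The mast cell and basophil list of 10 genes summed to 1.42, 8.46 and 1.53 CPM in reporter-positive cells. It summed to 1.20, 1.37 and 2.10 CPM in reporter-negative cells, with Ms4a2 and Fcer1a at 0 there. Hdc of that list went the other way, lowest in replicate 2 of each group, with 37, 21 and 35 counts in reporter-positive and 37, 20 and 65 in reporter-negative cells. The neutrophil list of 10 genes, led by S100a8 and S100a9, summed to 96.3, 379 and 95.7 CPM in reporter-positive cells and 53.2, 82.99 and 61.5 CPM in reporter-negative cells, with Camp and Ngp at 0 in all reporter-positive libraries and Camp at 0 in all reporter-negative libraries. The sum in reporter-positive replicate 2 was nearly all S100a8 (139 CPM) and S100a9 (230 CPM), which keratinocytes are also known to express. The neutrophil genes Csf3r and Cxcr2 were instead lowest in replicate 2 of each group. Csf3r had 1.87, 1.08 and 2.13 CPM in reporter-positive cells and 2.25, 0.916 and 2.44 CPM in reporter-negative cells. Cxcr2 had 10.2, 8.72 and 9.98 CPM in reporter-positive cells and 10.04, 7.43 and 11.6 CPM in reporter-negative cells. The leukocyte list of 8 genes summed to 13.3 to 81.9 CPM in reporter-positive cells and 11.5 to 67.6 CPM in reporter-negative cells, with the highest value in replicate 2 of each group and no gene at 0. The fibroblast list of 8 genes, another known source of IL-33, summed to 55.4, 182 and 43.7 CPM in reporter-positive cells and 78.3, 144 and 46.2 CPM in reporter-negative cells, with no gene called and none at 0. Replicate 2 was thus the highest library of its group in the sums of the leukocyte and fibroblast lists. The part of these cells in the Il33 result was not tested.

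Il1a encodes IL-1 alpha, the epithelial ligand of IL-1R1. It had 103, 52.0 and 101 CPM in reporter-positive cells and 73.0, 29.6 and 72.0 CPM in reporter-negative cells. Replicate 2 was the lowest library in both groups, and the groups overlapped, but the reporter-positive library was the higher one within every replicate number. The difference was 0.55 ± 0.40 (SE, adjusted p = 0.522) unpaired and 0.59 ± 0.07 (adjusted p = 0.00800) with the block. With replicates 1 and 3 summed, the unpaired edgeR difference was 0.59 ± 0.54 (SE, adjusted p = 0.892). A noncoding gene on the opposite strand, Gm14023, shares 222 bases of exon with Il1a and had at most 54 counts in any library.

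Il1f9 encodes IL-36 gamma, a keratinocyte cytokine that signals through the IL-36 receptor Il1rl2 and IL-1RAP. It had 49.6, 63.1 and 54.1 CPM in reporter-positive cells and 40.9, 40.2 and 43.5 CPM in reporter-negative cells. It was the only 1 of the 9 tested genes whose reporter-positive libraries all lay above all reporter-negative ones, where 14.6% of all tested genes did so, and 2 of the 9 did not overlap in either direction, where 28.2% of all tested genes did not. The difference was 0.42 ± 0.10 (SE, adjusted p = 0.0949) unpaired, 0.41 ± 0.08 (adjusted p = 0.0230) with the block, and 0.42 (adjusted p = 0.0112) by DESeq2. With replicates 1 and 3 summed, the unpaired edgeR difference was 0.48 ± 0.13 (SE, adjusted p = 0.681).

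The other ligands and the antagonist did not pass either test. Il1b, the IL-1 beta precursor, averaged 12.3 ± 9.90 CPM in reporter-positive cells and 12.9 ± 8.09 CPM in reporter-negative cells (SD, n = 3 each), with replicate 2 highest in each group at 23.7 and 22.3 CPM. Il18, which encodes an interferon-gamma-inducing cytokine, had 3.38, 5.08 and 2.81 CPM in reporter-positive cells and 3.61, 6.38 and 5.11 CPM in reporter-negative cells (blocked log2 difference -0.42 ± 0.17, SE, adjusted p = 0.137). Il1rn, which encodes the IL-1 receptor antagonist, had 33.5, 48.0 and 35.2 CPM in reporter-positive cells and 31.4, 37.2 and 33.9 CPM in reporter-negative cells (blocked log2 difference 0.17 ± 0.08, SE, adjusted p = 0.170).

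Among the receptors, Il1r1, the signalling receptor of IL-1, had 8.13, 5.77 and 9.95 CPM in reporter-positive cells and 12.8, 11.3 and 10.9 CPM in reporter-negative cells. All 3 reporter-positive libraries lay below all 3 reporter-negative ones, as they did for 13.6% of all tested genes. The difference was -0.55 ± 0.20 (SE; adjusted p = 0.210) unpaired and -0.57 ± 0.16 (adjusted p = 0.0559) with the block, so it missed the threshold. The decoy receptor Il1r2 had 2.06, 3.38 and 2.66 CPM in reporter-positive cells and 2.85, 4.29 and 3.86 CPM in reporter-negative cells, lower within every replicate number (blocked -0.45 ± 0.14, SE, adjusted p = 0.0698). The co-receptor Il1rap had 48.7, 41.1 and 48.2 CPM in reporter-positive cells and 41.9, 43.1 and 41.2 CPM in reporter-negative cells, without a call.

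Il1rl1, the ST2 gene, was near the floor in most tumor cell libraries and was not tested there. It had 3, 20 and 1 counts in reporter-positive cells and 6, 3 and 3 counts in reporter-negative cells. The 20 counts stood in reporter-positive replicate 2, the library with the highest Il33 and the highest mast cell transcripts; the part of those cells was not tested. In the other tumor libraries, ST2 transcript rested on only 1 to 6 counts per library.

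**Figure D2:**
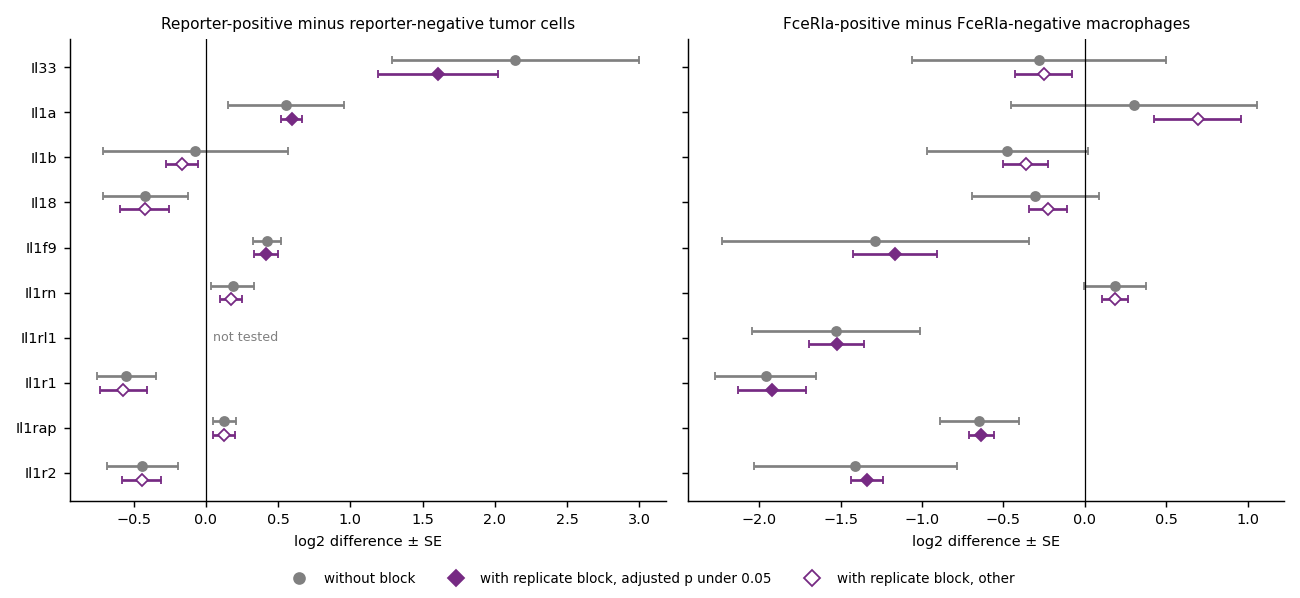
Log2 difference ± SE of each gene between reporter-positive and reporter-negative tumor cells (left) and between FceRIa-positive and FceRIa-negative macrophages (right), without (circles) and with (diamonds, filled where the adjusted p is under 0.05) the replicate block. Il33, Il1a and Il1f9 are filled on the higher side in tumor cells, and Il1rl1, Il1r1, Il1r2, Il1rap and Il1f9 on the lower side in macrophages; Il1rl1 was not tested in tumor cells.

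In the comparison of macrophages by surface FceRIa, the receptor genes Il1rl1, Il1r1, Il1r2 and Il1rap and the ligand Il1f9 were lower in FceRIa-positive cells with the block, and none of the 10 passed the unpaired test. Without the block edgeR called 0 of 10 genes, and it called 0% of all tested genes. At an unadjusted p under 0.05 there were 0 higher and 3 lower, and DESeq2 called 0 higher and 2 lower. With the block 0 were higher, where 10.8% of all tested genes were called higher, and 5 were lower, where 10.2% were called lower and 21.0% in either direction. Without replicate 1, 2 or 3 in turn the blocked fit called 4, 6 and 5 of the 10 lower, where it called 4.54%, 9.17% and 10.4% of all tested genes lower.

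Il1rl1, which encodes the IL-33 receptor ST2, had 1.24, 3.08 and 1.36 CPM in FceRIa-positive macrophages and 3.19, 8.77 and 4.44 CPM in FceRIa-negative macrophages, from 45 to 377 counts a library. Replicate 2 was highest in each group, and the groups did not overlap, which held in this direction for 9.78% of all tested genes. Within replicate numbers 1, 2 and 3 the FceRIa-positive level was 0.408, 0.359 and 0.321 of the FceRIa-negative level. The difference was -1.53 ± 0.51 (SE; adjusted p = 0.210) unpaired, -1.52 ± 0.17 (adjusted p = 0.000879) with the block and -1.53 (adjusted p = 0.0439) by DESeq2.

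Il1r1, the receptor of IL-1 alpha and IL-1 beta, had 5.99, 7.91 and 4.89 CPM in FceRIa-positive macrophages and 15.1, 28.6 and 29.5 CPM in FceRIa-negative macrophages. These groups did not overlap either, which made 2 of 10 genes, where 21.4% of all tested genes did not overlap in either direction. The difference was -1.96 ± 0.31 (SE; adjusted p = 0.0591) unpaired, -1.92 ± 0.21 (adjusted p = 0.000775) with the block and -1.96 (adjusted p = 1.69e-07) by DESeq2.

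Il1r2, the decoy receptor, was the most abundant per length of the 4 receptor genes in macrophages. It had 175, 61.2 and 206 CPM in FceRIa-positive macrophages and 446, 133 and 594 CPM in FceRIa-negative macrophages. Replicate 2 was lowest in each group and the groups overlapped, while the FceRIa-positive level was 0.392, 0.461 and 0.346 of the FceRIa-negative level within numbers 1, 2 and 3. The difference was -1.41 ± 0.62 (SE; adjusted p = 0.350) unpaired and -1.34 ± 0.10 (adjusted p = 0.000203) with the block.

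Il1rap, the co-receptor that ST2 and IL-1R1 share, had 42.2, 28.8 and 43.5 CPM in FceRIa-positive macrophages and 60.3, 43.4 and 75.6 CPM in FceRIa-negative macrophages. The FceRIa-positive library was the lower one within each number, and the groups met at 43.5 and 43.4 CPM. The difference was -0.65 ± 0.24 (SE; adjusted p = 0.256) unpaired and -0.64 ± 0.08 (adjusted p = 0.00133) with the block. Il1rap shares 552 bases of exon with the antisense gene Gm20319, which had at most 5 counts in any library.

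The ligands varied more between replicate numbers than between the macrophage groups. Il1f9 had 9.86, 1.42 and 5.36 CPM in FceRIa-positive macrophages and 17.9, 1.84 and 20.9 CPM in FceRIa-negative macrophages, with a blocked difference of -1.17 ± 0.26 (SE; adjusted p = 0.0164) that missed the threshold without replicate 1 (adjusted p = 0.0990) and was -0.69 without replicate 3. Il1a had 28.4, 16.7 and 45.2 CPM in FceRIa-positive macrophages and 12.7, 6.79 and 53.7 CPM in FceRIa-negative macrophages. Il1a was thus higher in FceRIa-positive cells at numbers 1 and 2 and lower at number 3, with a blocked difference of 0.69 ± 0.27 (SE; adjusted p = 0.109) that was 1.22 and was called without replicate 3.

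Il1b, the most abundant of the 10 genes per length in macrophages, had 868, 540 and 1233 CPM in FceRIa-positive macrophages and 1178, 530 and 1966 CPM in FceRIa-negative macrophages. Its groups overlapped, and its blocked difference of -0.36 ± 0.14 (SE; adjusted p = 0.105) missed the threshold; the antisense gene Il1bos shares 25 bases of exon with it and had at most 260 counts. Il1rn had 435, 373 and 533 CPM in FceRIa-positive macrophages and 376, 331 and 471 CPM in FceRIa-negative macrophages, higher within every number, with a blocked difference of 0.19 ± 0.08 (SE; adjusted p = 0.144). Il18 averaged 38.7 ± 11.3 CPM in FceRIa-positive macrophages and 47.9 ± 24.2 CPM in FceRIa-negative macrophages (SD, n = 3 each), without a call.

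Il33 was low in macrophage libraries, with 3.95, 3.49 and 0.766 CPM in FceRIa-positive macrophages and 4.90, 4.28 and 0.799 CPM in FceRIa-negative macrophages. Its order over the libraries followed that of the keratin gene Krt14, which had 1189, 789 and 97.2 CPM in FceRIa-positive macrophages and 1706, 1237 and 129 CPM in FceRIa-negative macrophages, with replicate 3 lowest in both genes. Per 100000 Krt14 counts, Il33 had 22.2 to 251 counts in tumor libraries and 287 to 788 counts in macrophage libraries. The keratinocyte list of 8 genes summed to 618 to 2394 CPM in FceRIa-positive macrophages and 2277 to 4079 CPM in FceRIa-negative macrophages, with none at 0. With the block 6 of the 8 were lower, where 10.2% of all tested genes were called lower. Most of the sum in FceRIa-negative replicate 3 was Cdh1 (1455 CPM) and Epcam (529 CPM). Tumor libraries had 197 to 367 CPM of Cdh1 and 165 to 198 CPM of Epcam. Epcam is also on the dendritic and Langerhans cell list below. The fibroblast list summed to 85.7 to 252 CPM in FceRIa-positive macrophages and 118 to 139 CPM in FceRIa-negative macrophages, with none called and none at 0. The part of tumor cell or fibroblast RNA in the Il33 of the macrophage libraries was not tested.

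**Figure D3:**
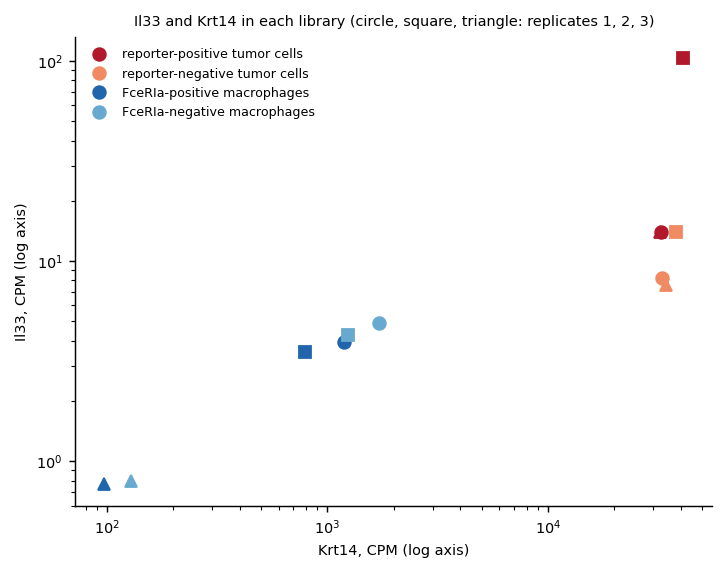
Il33 against Krt14 in each of the 12 libraries (CPM, both axes log; CPM were scaled within each table). Macrophage libraries with more Krt14 had more Il33, from 97.2 and 0.766 CPM to 1706 and 4.90 CPM, and reporter-positive tumor replicate 2 stands at 103 CPM of Il33 apart from the other tumor libraries.

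Markers of other cells moved with the macrophage groups, where 10.8% of all tested genes were called higher and 10.2% lower with the block. The macrophage list of 10 genes summed to 27034 to 29760 CPM in FceRIa-positive macrophages and 15145 to 19141 CPM in FceRIa-negative macrophages, with 9 genes higher with the block. The dendritic and Langerhans cell list of 10 genes summed to 762.4 to 1010 CPM in FceRIa-positive macrophages and 1271 to 1822 CPM in FceRIa-negative macrophages, with 6 genes lower, among them Flt3 (-2.85) and Cd207 (-3.06). Most of each sum was Itgax, at 712, 933 and 891 CPM in FceRIa-positive and 966, 929 and 1025 CPM in FceRIa-negative macrophages. Within numbers 1, 2 and 3, Cd209a was 0.956, 0.537 and 1.23 of the FceRIa-negative level. For Xcr1 these values were 1.21, 0.959 and 0.538. No gene of these 2 lists was at 0 in either group.

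The mast cell and basophil list, some of whose cells are known to carry ST2, summed to 34.6, 10.3 and 42.0 CPM in FceRIa-positive macrophages and 76.9, 19.3 and 157 CPM in FceRIa-negative macrophages, with 4 of 9 tested genes lower and none at 0. These sums were lowest in replicate 2, where Il1rl1 was highest. In replicates 1 and 3 they were mostly Hdc, at 28.2 and 32.3 CPM in FceRIa-positive and 60.1 and 132 CPM in FceRIa-negative macrophages. Cpa3 had 12, 30 and 22 counts in FceRIa-positive and 11, 36 and 37 counts in FceRIa-negative macrophages. Tpsb2 had 18, 30 and 21 counts against 18, 24 and 22 counts. Ms4a2, the beta chain of the IgE receptor, had 11, 16 and 13 counts in FceRIa-positive macrophages and 23, 55 and 47 counts in FceRIa-negative macrophages. The neutrophil list, whose cells are known to carry Il1r2, summed to 399, 153 and 276 CPM in FceRIa-positive macrophages and 687, 135 and 691 CPM in FceRIa-negative macrophages, with 4 of 7 tested genes lower, no gene at 0 and replicate 2 lowest as for Il1r2. Most of these sums was Csf3r, S100a8 and S100a9. Ly6g had 3, 1 and 5 counts in FceRIa-positive and 11, 1 and 5 counts in FceRIa-negative macrophages. Within numbers 1, 2 and 3, Mmp8 was 1.59, 1.20 and 0.855 of the FceRIa-negative level. For Csf3r these values were 0.728, 1.30 and 0.496. The T cell and innate lymphoid cell list summed to 51.4 to 76.9 CPM in FceRIa-positive macrophages and 83.04 to 110 CPM in FceRIa-negative macrophages, with 3 of 6 tested genes lower, 1 higher and none at 0. The largest part was Il7r, at 54.4, 44.1 and 38.6 CPM in FceRIa-positive and 44.1, 69.6 and 67.4 CPM in FceRIa-negative macrophages. Cd3g had 10, 9 and 36 counts in FceRIa-positive and 627, 29 and 499 counts in FceRIa-negative macrophages. Cd3e had 8, 6 and 9 counts against 119, 6 and 129 counts. Rora was higher in FceRIa-positive macrophages within every number. Dissociation stress genes summed to 3681, 1740 and 4451 CPM in FceRIa-positive macrophages and 3781, 1890 and 5652 CPM in FceRIa-negative macrophages, with 4 of 12 tested lower and Jund at 0 in both groups. The part of these cells and of dissociation stress in the lower Il1rl1, Il1r1, Il1r2, Il1rap and Il1f9 was not tested.

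The receptor genes of the chromosome 1 line were then read together, a group chosen after the values were seen. From Il1r2 to the end of Il18rap, 6 protein-coding genes span 477.627 kb, namely Il1r2, Il1r1, Il1rl2, Il1rl1, Il18r1 and Il18rap. In macrophages all 6 were lower in FceRIa-positive cells with the block, where 10.2% of all tested genes were called lower. Their differences were -1.34, -1.92, -0.64, -1.52, -3.55 and -1.58 in that order. Without the block edgeR called none of the 6 (adjusted p of 0.0585 to 0.350). The flanking genes Map4k4 (0.20) and Slc9a4 (-0.13) were not called. Il18r1, the IL-18 receptor chain, had 1.08, 0.464 and 1.06 CPM in FceRIa-positive macrophages and 6.33, 7.84 and 18.3 CPM in FceRIa-negative macrophages. Markers of other cells moved with these groups, as given above. The part of those cells in the lower Il1rl2, Il18r1 and Il18rap was not tested either. In tumor cells Il1rl1 was not tested. With the block 2 of the other 5 were called in opposite directions, where 18.0% of all tested genes were called in either direction. They were Il1rl2 at -0.34 (adjusted p = 0.0138) and Il18rap at 0.99 (adjusted p = 0.0214). The flanking gene Map4k4 was called as well, at 0.40 (adjusted p = 0.0116).

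**Figure D4:**
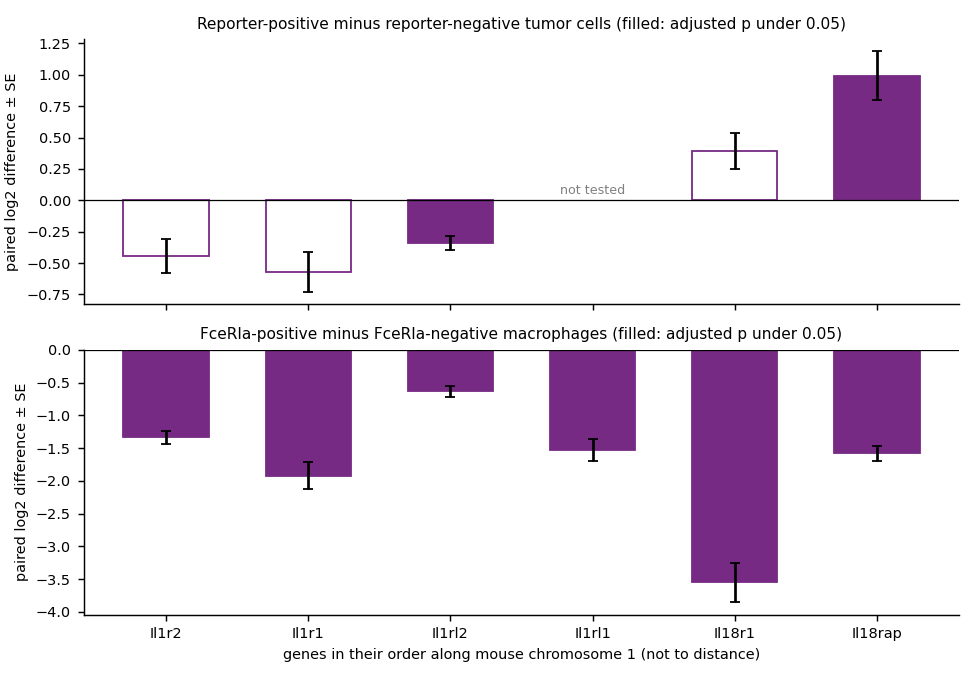
Log2 difference ± SE with the replicate block for the 6 receptor genes in their order along chromosome 1, in tumor cells (upper, reporter-positive minus reporter-negative) and macrophages (lower, FceRIa-positive minus FceRIa-negative); filled bars have an adjusted p under 0.05. All 6 bars are filled and below 0 in macrophages, from -0.64 to -3.55, where 10.2% of all tested genes were called lower. In tumor cells 2 of the 5 tested genes are filled with opposite signs, where 18.0% of all tested genes were called, and Il1rl1 was not tested.

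With tumor cells as source and macrophages as target, levels were set side by side in 1 fit over all 12 libraries. The 2 tables are separate sorts, so cell type and table cannot be told apart, and levels across them rest on counts scaled together for this comparison only. Il33, Il1f9 and Il1a were higher in tumor cells, and Il1b, Il1r2, Il1rl1, Il1rn and Il18 were lower. Of the 10 genes, 3 were higher in tumor cells, where 40.6% of all tested genes were called higher, and 5 were lower, where 44.8% were called lower; in either direction 85.4% of all tested genes were called. All 6 tumor libraries lay above all 6 macrophage libraries for 2 of the 10, where 33.8% of all tested genes did so, and below them for 5, where 37.0% did so, with 70.8% in either direction.

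Il33 averaged 27.9 ± 39.4 CPM in tumor cells and 2.96 ± 1.77 CPM in macrophages (SD, n = 6 each), a difference of 2.86 ± 0.66 (SE; adjusted p = 0.00166), and its receptor Il1rl1 averaged 0.197 ± 0.243 CPM in tumor cells and 3.59 ± 2.71 CPM in macrophages, a difference of -4.08 ± 0.58 (SE; adjusted p = 4.69e-05). Ligand and receptor transcripts of this pair thus stood on opposite sides, without overlap of the cell types for either gene. The co-receptor Il1rap averaged 45.2 ± 3.41 CPM in tumor cells and 47.7 ± 15.98 CPM in macrophages, a difference of -0.04 ± 0.14 (SE; adjusted p = 0.796).

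For the IL-1 ligands the sides were split. Il1a averaged 73.6 ± 28.8 CPM in tumor cells and 26.4 ± 18.1 CPM in macrophages (SD, n = 6 each; difference 1.46 ± 0.48, SE, adjusted p = 0.0143), with overlapping libraries. Il1b averaged 13.01 ± 8.45 CPM in tumor cells and 1023 ± 520 CPM in macrophages (difference -6.28 ± 0.56, SE, adjusted p = 9.69e-07). Per length, Il1a was 1.28 to 15.2 times Il1b in tumor libraries and 0.0105 to 0.0354 times Il1b in macrophage libraries. Their receptor Il1r1 averaged 10.05 ± 2.52 CPM in tumor cells and 14.9 ± 10.9 CPM in macrophages, without a call (difference -0.28 ± 0.19, SE, adjusted p = 0.190), although it passed without FceRIa-negative replicate 1 (-0.40, adjusted p = 0.0385).

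The genes that hold IL-1 back were on the macrophage side. The antagonist Il1rn averaged 37.6 ± 6.46 CPM in tumor cells and 408 ± 70.4 CPM in macrophages (SD, n = 6 each; difference -3.44 ± 0.14, SE, adjusted p = 2.34e-09). The decoy Il1r2 averaged 3.27 ± 0.852 CPM in tumor cells and 262 ± 200 CPM in macrophages (difference -6.17 ± 0.46, SE, adjusted p = 2.16e-07). Per length, Il1r2 was 0.741 to 1.95 times Il1r1 in tumor libraries and 15.5 to 140 times Il1r1 in macrophage libraries. Il1rn was 0.108 to 0.252 of the sum of Il1a and Il1b in tumor libraries and 0.0804 to 0.231 of it in macrophage libraries, per length.

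Il18 and Il1f9 completed the ligands. Il18 averaged 4.52 ± 1.40 CPM in tumor cells and 42.1 ± 16.9 CPM in macrophages (SD, n = 6 each; difference -3.22 ± 0.29, SE, adjusted p = 1.06e-06). Il1f9 averaged 49.9 ± 9.54 CPM in tumor cells and 9.30 ± 8.06 CPM in macrophages (difference 2.55 ± 0.53, SE, adjusted p = 0.000865), without overlap.

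Levels per length (RPKM, that is CPM per kilobase of merged exons) ranked the genes within each group. In reporter-positive tumor cells Il1a at 43.3 ± 14.7 and Il1f9 at 33.7 ± 4.19 RPKM did not differ beyond their spread (SD, n = 3), and Il1f9 was above Il1a in replicate 2. Il33 averaged 15.2 ± 17.9 RPKM there, through 35.8 RPKM in replicate 2, and stood at 4.82 and 4.85 RPKM in replicates 1 and 3, below Il1rn at 6.04 and 6.36 RPKM. In reporter-negative tumor cells Il1a at 29.5 ± 12.5 and Il1f9 at 25.2 ± 1.05 RPKM did not differ beyond their spread, and Il33 stood at 3.45 ± 1.22 RPKM. In FceRIa-positive macrophages Il1b was highest at 462 ± 182 RPKM, and Il1rn at 80.7 ± 14.5 and Il1r2 at 77.2 ± 39.9 RPKM were within their spread of each other. In FceRIa-negative macrophages Il1b stood at 642 ± 377, Il1r2 at 205 ± 123 and Il1rn at 70.9 ± 12.9 RPKM. Il1rl1 was the lowest of the 10 genes in all 4 groups, at 0.0380 and 0.0171 RPKM in reporter-positive and reporter-negative tumor cells and 0.275 and 0.793 RPKM in FceRIa-positive and FceRIa-negative macrophages.

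**Figure D5:**
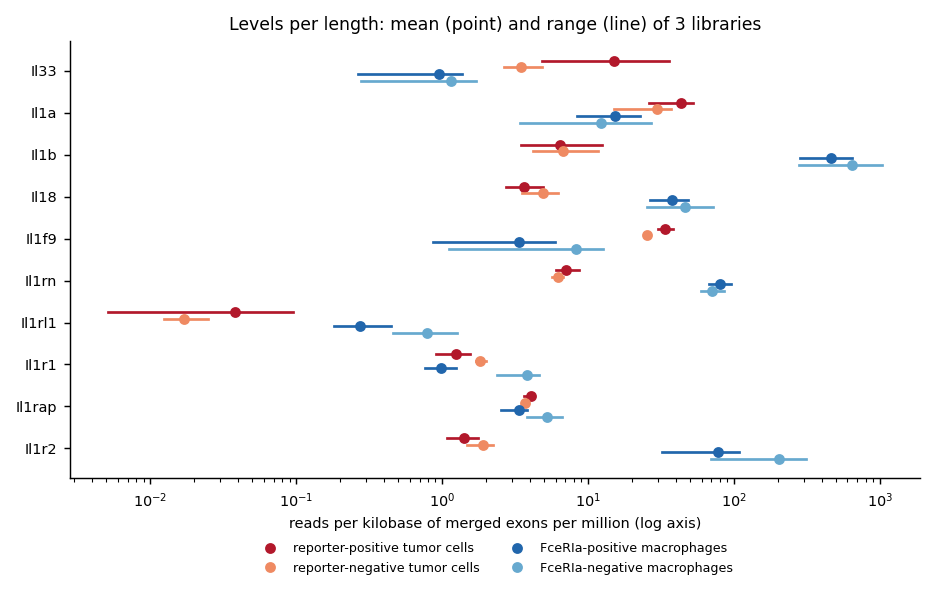
RPKM of the 10 genes on a log axis, scaled within each table; points are means and lines the range of 3 libraries in each group. Il1a and Il1f9 have the highest means in tumor cells, Il1b in macrophages, and Il1rl1 lowest in all 4 groups.

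Other genes of the family and its pathway were read from lists. With the block, 10.7% of all tested genes were called higher and 7.34% lower in tumor cells. In macrophages these background shares were 10.8% and 10.2%. Of 11 other IL-1 family ligands and receptors, 7 were tested in tumor cells, where 1 was higher and 1 lower with the block (median unpaired log2 difference 0.40, against 0.00 over all tested genes). In macrophages 5 were tested, where 1 was higher and 4 lower with the block (median -0.99, against -0.00 over all tested genes). The higher one was Il18bp, which encodes a soluble inhibitor of IL-18, with 27.9, 47.2 and 32.9 CPM in FceRIa-positive macrophages and 7.72, 13.5 and 5.12 CPM in FceRIa-negative macrophages (blocked log2 difference 2.09 ± 0.16, SE, adjusted p = 0.000255).

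The signalling chain below the receptors was read in the same way. Background shares with the block were again 10.7% higher and 7.34% lower in tumor cells, and 10.8% and 10.2% in macrophages. Of 22 MyD88 and NF-kappaB signalling genes, all tested, 4 were higher and 0 lower with the block in reporter-positive cells (median 0.10). Tollip, an adaptor of IL-1 receptor signalling, averaged 132 ± 4.07 CPM in reporter-positive cells and 104 ± 13.9 CPM in reporter-negative cells (SD, n = 3 each; blocked difference 0.35, adjusted p = 0.0208), and Ikbkg, the regulatory subunit of the IkappaB kinase, differed by 0.25 (adjusted p = 0.0325). In macrophages 1 of the 22 was higher, Tab2 at 0.40 (adjusted p = 0.00825), and 0 were lower (median -0.00). Of 17 genes for cytokine processing and pore formation, 9 were tested in tumor cells, with Gsdmd, the pore-forming gasdermin through which IL-1 beta leaves cells, higher at 0.55 (adjusted p = 0.0202). In macrophages 15 were tested, with 2 higher, among them the inflammatory caspase Casp4 at 0.57 (adjusted p = 0.00176), and 1 lower, the gasdermin Gsdme at -0.80 (adjusted p = 0.00258).

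Of 20 known IL-1 response genes, 19 were tested in tumor cells, where 8 were higher and 1 lower with the block (median 0.25), beside background shares of 10.7% and 7.34%. Tnfaip3, a feedback inhibitor of NF-kappaB, differed by 0.65 (adjusted p = 0.00664), with 107, 41.8 and 106 CPM in reporter-positive cells and 64.8, 31.0 and 62.0 CPM in reporter-negative cells, and the chemokine Cxcl5 was the lower one at -0.41 (adjusted p = 0.0342). Dissociation stress genes also moved in tumor cells, with 5 of 12 tested higher with the block and sums of 3658 to 7162 CPM in reporter-positive cells and 3081 to 6588 CPM in reporter-negative cells; their part in the result was not tested. In macrophages 18 of the IL-1 response genes were tested, with 5 higher and 2 lower (median -0.12), beside background shares of 10.8% and 10.2%. The chemokine Ccl2 averaged 83.1 ± 29.4 CPM in FceRIa-positive macrophages and 29.8 ± 5.86 CPM in FceRIa-negative macrophages (SD, n = 3 each; blocked difference 1.43, adjusted p = 0.00484), the collagenase Mmp13 differed by 1.26 (adjusted p = 0.000396), and Tnf differed by -0.85 (adjusted p = 0.0137).

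Of 16 IL-33 and type 2 response genes, 7 were tested in tumor cells and 2 were higher with the block, where 10.7% of all tested genes were. They were Arg1 at 1.38 (adjusted p = 0.0151) and Mrc1 at 0.63 (adjusted p = 0.0185). Both are known from macrophages. Of 10 macrophage markers tested in the tumor cells, 2 were higher with the block and 0 lower, where 10.7% and 7.34% of all tested genes were. The higher ones were Csf1r (0.54, adjusted p = 0.0325) and Lyz2 (0.43, adjusted p = 0.0191). Mertk of the same list was lower within every replicate number, at log2 ratios of -0.37, -0.42 and -0.61. The part of macrophage RNA was not tested. In macrophages 14 of the type 2 list were tested, with 4 higher and 5 lower (median -0.49), beside background shares of 10.8% and 10.2%. The mannose receptor Mrc1 had 3926, 2215 and 2701 CPM in FceRIa-positive macrophages and 1198, 1033 and 747 CPM in FceRIa-negative macrophages (blocked difference 1.56, adjusted p = 0.000611). The chemokine Ccl22 had 3.04, 1.80 and 4.39 CPM in FceRIa-positive macrophages and 28.0, 26.8 and 65.3 CPM in FceRIa-negative macrophages (-3.66, adjusted p = 2.54e-05), and the IL-2 receptor chain Il2ra differed by -2.51 (adjusted p = 0.000247). The members of this list that moved in macrophages therefore went both ways.

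Genes whose pattern was most like that of Il33 over the 6 tumor libraries, by Pearson's r of log2(CPM + 1) among 8540 genes with a mean CPM of at least 10, were Tatdn1, Atp6v0e, Twf1, Egln3 and Rab24 (r of 0.999 to 0.997). All 5 were highest in reporter-positive replicate 2, so the likeness rests on that library; Egln3, an oxygen-sensing hydroxylase, had 245, 461 and 246 CPM in reporter-positive cells and 197, 241 and 197 CPM in reporter-negative cells. For Il1rl1 over the 6 macrophage libraries, among 8810 genes, they included Bclaf3, Pqlc3, Bora and Plekhf2 (r of 0.990 to 0.978). Pqlc3 had 53.8, 64.4 and 56.98 CPM in FceRIa-positive macrophages and 63.8, 76.5 and 68.8 CPM in FceRIa-negative macrophages, highest in replicate 2 of each group, as Il1rl1 was. Libraries of 1 replicate number share their deviations, so these likenesses are descriptions.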

How the data were processed

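The authors deposited 2 tables of raw counts per gene, 1 for the 6 tumor cell libraries and 1 for the 6 macrophage libraries, each with 53801 gene rows and no row that names no gene. Per the submitters' processing notes, FastQC and STAR were used with mm10 (GRCm38). The sources used here name no counting tool, strand setting or annotation. Per the labels, libraries were made with an Illumina TruSeq v2 kit from 100 ng of total RNA of sorted cells. Another 4 count columns matched none of the labelled samples and were left out. Samples were grouped by their titles.

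Counts were tested with edgeR 4.0.16 (R 4.3.3) by TMM scaling, filterByExpr and the quasi-likelihood test, two-sided, with Benjamini-Hochberg adjustment over 13604 tumor, 14988 macrophage or 16279 joint genes at a threshold of 0.05. DESeq2 1.42.0, other scalings, other filters, left-out libraries and the replicate block were the alternatives. CPM were scaled within each table by TMM, and RPKM used merged exon lengths of GENCODE M21. Ratios within a replicate number used a pseudocount of 0.1 CPM. Deviations from group means of same-numbered libraries correlated at 0.449, 0.703 and 0.488 in tumor cells and at 0.688, 0.787 and 0.734 in macrophages, which took the numbers as pairs, though tumor replicates 1 and 3 also correlated across numbers (0.483 and 0.488). The fits were tested on simulated data with a fixed spread, no effect of replicate number and no replicates closer to each other than to the rest. That test therefore does not cover the shared deviations of same-numbered libraries.

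The genes followed and all lists were chosen with earlier results of these data known. The text names the 10 followed genes, from each pathway list up to 3 tested genes of smallest p in each comparison, marker genes, and the 5 genes most like Il33 or Il1rl1, of which 1 is not reported here; the receptor line on chromosome 1 and its flanks, and markers set beside a result, were chosen after their values were seen.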

Additional observations from a re-analysis of the deposited data

How the results depend on the processing

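The tumor and macrophage calls depended on how the spread was estimated. In tumor cells 78 genes were higher and 32 lower; DESeq2 gave 707 and 451, no filter 173 higher, the replicate block 1450 and 999, the block without numbers 1, 2 and 3 in turn gave 1055, 2927 and 803 higher and 498, 2802 and 340 lower, leaving out 1 library 0 to 391 higher and 0 to 230 lower (most without reporter-positive replicate 2, none without reporter-positive replicate 3 or reporter-negative replicate 1 or 3), and summing replicates 1 and 3 gave 0 and 0. Of the 10 genes, 0 were called; DESeq2 gave 1 higher, the block 3 higher, and the block without 1 number 3 to 4 higher and 0 to 4 lower. In macrophages 0 genes were called; DESeq2 gave 662 higher and 609 lower, no filter 292 and 331, the block 1618 and 1524, the block without numbers 1, 2 and 3 in turn gave 626, 1298 and 1743 higher and 691, 1374 and 1606 lower, and leaving out 1 library 0 higher and 0 to 2 lower. Of the 10 genes, DESeq2 gave 2 lower, no filter 1 lower, the block 5 lower, and the block without 1 number 0 to 1 higher and 4 to 6 lower. The block changed no other call of the 10 genes than those given with the results. Causes of these shifts were not tested.

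Signs turned for differences that were not called. Leaving out 1 library at a time, tumor Il1b ranged over -0.98 to 0.57, tumor Il1rn over -0.0022 to 0.28, macrophage Il33 over -0.75 to 0.13, Il1a over -0.13 to 1.60, Il1b over -0.83 to 0.026 and Il18 over -0.59 to 0.13, and Il1rap between tumor cells and macrophages over -0.13 to 0.058; with upper-quartile scaling the last was 0.012. Il1b and Il18 in macrophages turned without FceRIa-negative replicate 3, and tumor Il1rn without reporter-positive replicate 2. The comparison of tumor cells with macrophages kept 3 genes higher under every edgeR setting run, with 5 lower, or 6 without FceRIa-negative replicate 1; DESeq2 called 2 higher and gave no adjusted p for Il33. No paired analysis was possible between tumor cells and macrophages because their numbers come from separate sorts. Depth limits Il1rl1 in tumor cells, at 1 to 20 counts a library, and 3 libraries a group limit every other difference.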

Other observations

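Il1f8, which encodes IL-36 beta, had 0.379, 1.71 and 0.284 CPM in reporter-positive tumor cells and 0.0569, 0.982 and 0.227 CPM in reporter-negative tumor cells, from 2 to 52 counts a library, highest in replicate 2 of each group. Sigirr, an inhibitory receptor of the family, was lower with the replicate block in FceRIa-positive macrophages (log2 difference -0.98, edgeR adjusted p = 0.00315). Of the promoter windows not shown, that of Il1rn held AP-1 letters 141 bases before the start, and the downstream Il1rl1 window held antioxidant response letters at 88 and GATA letters at 103 bases; those of Il1b, Il18, Il1r1, Il1r2 and Il1rap held none of the searched letters.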
